A study of Homo sapiens with 9 samples.

Results

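Transcripts of 40 cell cycle and DNA replication genes were followed in HepG2 cells given the PPARα agonist GW7647. The 40 genes were chosen by symbol, each was read from whichever of its probe sets was brightest on average, and they make up 40 of the 19775 genes measured. They fall into 9 genes of the passage from G1 into S phase, 13 genes of DNA replication and nucleotide supply, and 18 genes of the G2 phase and mitosis. HepG2 is an established human hepatoma line, and PPARα is a ligand-activated nuclear receptor that drives fatty acid oxidation genes in liver. All cells grew in phenol red-free medium with serum and received either the vehicle DMSO or 100 nM GW7647, a synthetic agonist, for 6 h or 24 h. Each of the 3 groups (vehicle, 6 h and 24 h) comprised 3 Affymetrix arrays. Both times were set against the same vehicle arrays, and the sources used here do not give how long those cells were kept, so ligand exposure and time in culture cannot be told apart at either time. The sources do not state that the 3 arrays of a group came from separate cultures, so the p-values below measure only how far these samples scatter, which may be technical variation.

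A dividing cell enters S phase when cyclin D with CDK4 and cyclin E with CDK2 inactivate the retinoblastoma protein family and release the E2F transcription factors, which switch on replication genes. Origins of replication are licensed by CDC6 and CDT1, which load the MCM helicase, and are fired when CDC45 joins it. Later, cyclin B with CDK1 drives mitosis, under a second transcriptional wave that depends on FOXM1 and B-Myb. In bulk RNA from a growing culture, fewer cells in a phase and less transcript per cell cannot be told apart.

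The deposited log2 signals ran from 2.66 to 15.02, and the array medians lay between 5.61 and 5.68. Across all 19775 genes r was between 0.997 and 0.999 for arrays within a group and between 0.995 and 0.998 for arrays of different groups. Of the 40 genes, 39 lay above the median signal of all genes. Of 14 hepatocyte and hepatoma markers 12 were measured and 11 had a mean above 10. Their summed log2 level was 17.295 to 17.307 in the vehicle arrays, 17.270 to 17.295 at 6 h and 17.248 to 17.273 at 24 h, where TTR and FGB fell. Of 17 markers of other liver and blood cells 16 were measured, and 6 lay below the median probe set, PTPRC, COL3A1 and MS4A1 among them. A further 3 had a mean above 10: ACTA2, KRT19 and EPCAM, up to 11.36. The summed log2 level of the 16 was 12.8 to 12.9 in the vehicle arrays and at 6 h, and 12.9 to 13.0 at 24 h. ACTA2 rose at 24 h by 0.27 (limma, adjusted p = 0.00700). CD14, of the same list, fell at 6 h by 0.29 (adjusted p = 0.0159) and rose from 6 h to 24 h by 0.28 (adjusted p = 0.00674). The GAPDH 3′ minus 5′ signal, a measure of RNA integrity, was 0.018 to 0.022 at 24 h and 0.045 to 0.070 at 6 h, and the vehicle arrays, at -0.0082 to 0.076, spanned both. The part of these differences in the results was not tested.

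The sequence just upstream of the genes was searched for 3 motifs of cell cycle promoters, and 4 windows are printed as examples that hold these motifs, from genes called at 24 h whichever array was left out. They were chosen after their letters and values were seen: of the other 3 genes with such calls, CCNE1 and CENPE held none of the motifs and CDC45 held only a CCAAT box. RefSeq promoter windows on GRCh38.p14, from 250 bases before to 50 bases after the transcription start, matched 32 of the 40 genes. The other 8 (CCND1, CCNE2, CDK2, MCM4, MCM5, AURKA, BIRC5 and FOXM1) were not analysed for motifs here. The motifs searched on both strands were the E2F site, the cell cycle genes homology region or CHR, and the CCAAT box, which NF-Y binds. For E2F the letters were TTCCCGC, the variant TTCGCGC, the variant TTGGCGC, or the variant TTGCCGC. For the CHR they were TTTGAA, or the variant TTCGAA, and for the CCAAT box they were CCAAT itself. The E2F letters TTGGCGC can overlap a CCAAT box on the opposite strand. Capitals mark every match. The CDC25A window lies at chr3:48188368-48188667 on the minus strand, CDC6 at chr17:40287629-40287928 on the plus strand, CDK1 at chr10:60778081-60778380 on the plus strand (the first of 2 windows) and CCNB2 at chr15:59104896-59105195 on the plus strand. 
CDC25A: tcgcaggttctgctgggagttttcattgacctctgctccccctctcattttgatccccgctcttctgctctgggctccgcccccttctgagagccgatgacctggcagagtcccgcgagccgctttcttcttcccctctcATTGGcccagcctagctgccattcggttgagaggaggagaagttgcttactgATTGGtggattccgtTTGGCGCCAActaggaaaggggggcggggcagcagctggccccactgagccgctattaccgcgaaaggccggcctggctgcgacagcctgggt
CDC6: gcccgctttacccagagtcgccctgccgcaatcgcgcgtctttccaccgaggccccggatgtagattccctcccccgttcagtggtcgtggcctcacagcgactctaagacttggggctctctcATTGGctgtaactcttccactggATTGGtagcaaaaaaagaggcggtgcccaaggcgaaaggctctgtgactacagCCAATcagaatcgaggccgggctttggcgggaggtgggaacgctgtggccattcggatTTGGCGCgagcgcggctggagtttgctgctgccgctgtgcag
CDK1: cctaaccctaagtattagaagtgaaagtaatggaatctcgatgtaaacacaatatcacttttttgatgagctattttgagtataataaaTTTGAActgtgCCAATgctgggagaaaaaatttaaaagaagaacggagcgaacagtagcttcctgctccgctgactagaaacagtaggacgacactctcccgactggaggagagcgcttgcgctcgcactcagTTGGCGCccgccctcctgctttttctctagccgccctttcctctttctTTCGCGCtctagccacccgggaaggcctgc
CCNB2: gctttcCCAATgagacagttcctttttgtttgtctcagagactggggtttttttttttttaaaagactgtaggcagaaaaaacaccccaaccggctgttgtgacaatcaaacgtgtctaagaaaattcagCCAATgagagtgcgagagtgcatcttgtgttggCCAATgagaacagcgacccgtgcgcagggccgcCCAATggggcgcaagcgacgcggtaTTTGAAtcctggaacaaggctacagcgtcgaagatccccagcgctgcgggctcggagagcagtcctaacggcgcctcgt

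CDC25A held overlapping E2F matches that began 43 and 40 bases before the start, and CDC6 held one 9 bases after it. CDK1 held a CHR 161 bases before the start, close to a CCAAT box at 150, and E2F matches 28 bases before and 21 bases after the start. CCNB2 held a CHR 29 bases before the start behind 4 CCAAT boxes, at 244, 120, 87 and 54 bases before it, and no E2F letters. An E2F match was present for 10 of 11 replication genes (90.9%), 3 of 6 G1/S genes and 4 of 15 mitotic genes (26.7%). The share was 20.4% of the 15384 tested genes with a window and 15.3% of all 27305 genes with a window. A CHR was present for 11 of 15 mitotic genes (73.3%), 2 of 11 replication genes (18.2%) and none of the 6 G1/S genes. The share was 17.2% of tested genes and 19.5% of all genes with a window. A CCAAT box was present for 13 of 15 mitotic, 8 of 11 replication and 3 of 6 G1/S genes. The share was 41.7% of tested genes and 39.7% of all genes with a window. Mean GC content was 68.4% in G1/S windows, 65.2% in replication windows and 63.0% in mitotic windows, against 61.2% over tested genes. At 24 h the median log2 change was 0.08 in the 11 mitotic genes with a CHR and 0.13 in the 4 without one. A match describes the letters in the window and is neither a shown binding site nor a cause.

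**Figure D1:**
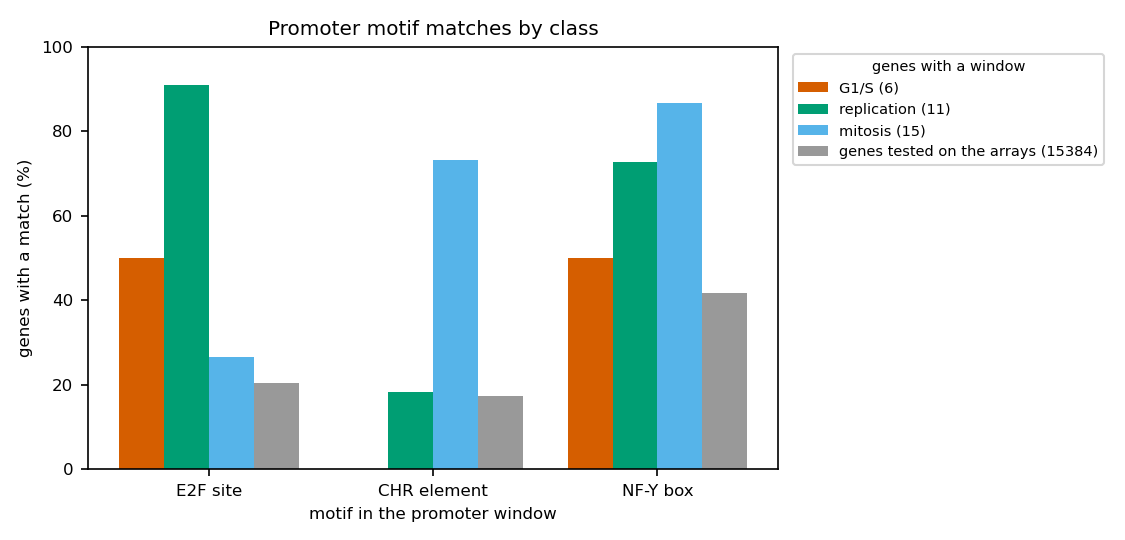
Share of genes (percent, vertical axis) whose promoter window holds an E2F site, a CHR element or a CCAAT (NF-Y) box, for the G1/S, replication and mitosis genes and for all tested genes with a window. The E2F bar is tallest for replication genes (90.9%) and the CHR bar for mitotic genes (73.3%).

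At 24 h the G1/S and replication genes that passed the test were all lower, whereas the mitotic genes went both ways. Cyclins B1 and B2 and CDC25C rose, while CDK1 and CENPE fell. At 6 h only CCNE1 (higher) and CDC25B (lower) passed the test. The test throughout was limma's moderated test over all 19775 genes with Benjamini-Hochberg adjustment, a call being an adjusted p under 0.05, and a change is given as a log2 difference ± its standard error. At 6 h against vehicle 1 of the 40 rose, 1 fell and 38 did not pass, against a background of 3.54% of all genes called (1.64% up, 1.91% down) and 6.34% among genes above the median signal (2.75% up, 3.59% down). At 24 h against vehicle 3 rose, 9 fell and 28 did not pass, against a background of 8.17% called (5.38% up, 2.80% down). Among genes above the median signal, where 39 of the 40 lie, the background at 24 h was 14.3% called (9.36% up, 4.95% down). The share called down, 22.5%, was thus above both backgrounds, and the 3 of 40 called up lay between them. In these data the fall at 24 h was the commoner direction among the 40 genes and the rarer one among all genes.

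Without 1 array the number of the 40 that rose at 24 h was 1 (leaving out the first vehicle array, the first 6 h array or the second 24 h array) to 5 (without vehicle replicate 2), and the number that fell was 6 to 7. Of the 12 calls at 24 h, 7 passed whichever of the 9 arrays was left out: CCNE1, CDC25A, CDC6, CDC45, CCNB2, CDK1 and CENPE.

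Between 6 h and 24 h 8 of the 40 rose, 9 fell and 23 did not pass, 42.5% called against a background of 13.8% (9.23% up, 4.57% down) and of 24.3% among genes above the median signal (16.9% up, 7.45% down). Of all genes 1826 rose and 903 fell between the times, and after quantile normalization 1457 rose and 1207 fell, with 4 rises and 11 falls among the 40; after median centring of the arrays the 40 had 11 rises and 7 falls. This comparison shares the 24 h arrays with 24 h against vehicle, and both vehicle comparisons share the vehicle arrays, so they are not independent. All 3 arrays of one group lay beyond all 3 of the other for 11 of the 40 at 6 h against vehicle (20.8% of all genes), 21 at 24 h against vehicle (23.0%) and 28 at 24 h against 6 h (33.0%). The number that rose from 6 h to 24 h was 3 without 6 h replicate 1, 6 h replicate 2 or 24 h replicate 2, and 5 without 6 h replicate 3 or 24 h replicate 1.

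**Figure D2:**
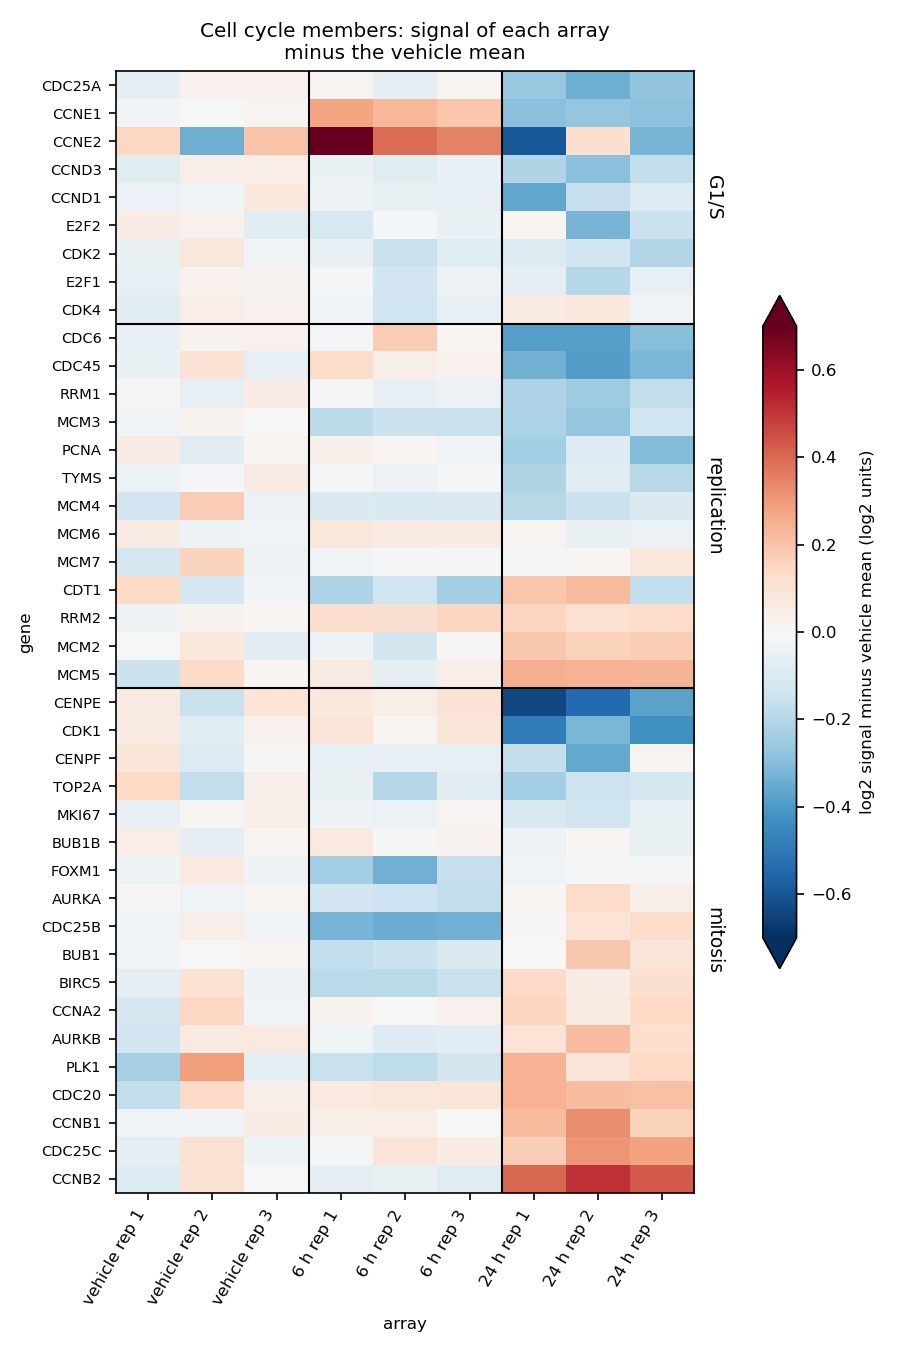
Log2 signal minus the vehicle mean (colour scale, log2 units) for each of the 40 genes (rows, by class) in each of the 9 arrays (columns). The 24 h columns are below the vehicle mean for most G1/S genes and mixed for mitotic genes, with CCNB2 high and CENPE and CDK1 low.

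The G1/S genes that changed at 24 h fell, and the cyclin E genes had the largest differences of the class between the times. None of the 9 rose at 24 h and CCNE1, CDC25A and CCND3 fell (33.3%), against 2.80% down over all genes and 4.95% above the median signal. A log2 change below 0 was seen for 8 of 9, and the median change was -0.21, against 0.0034 over all genes. The mean deviation of the 9 genes from their vehicle means was -0.20, -0.17 and -0.18 in the 3 arrays at 24 h, and 0.08, -0.0018 and 0.02 at 6 h. At 6 h 7 of the 9 had a log2 change below 0, the median was -0.06, and CCNE1 and CCNE2 were the 2 above 0.

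CCNE1 encodes cyclin E1, the partner of CDK2 at the entry into S phase. Its log2 signal was 10.52, 10.54 and 10.56 in the vehicle arrays, 10.82, 10.78 and 10.73 at 6 h, and 10.25, 10.27 and 10.25 at 24 h. The 3 groups did not overlap, with 6 h highest and 24 h lowest. It rose by 0.23 ± 0.05 at 6 h (limma, adjusted p = 0.0306), 1.18-fold with a 95% interval of 1.09 to 1.27, and fell at 24 h by 0.28 ± 0.05 (adjusted p = 0.0057), 1.22-fold. From 6 h to 24 h it fell by 0.52 ± 0.05 (adjusted p = 0.000104), 1.43-fold. The 6 h call passed only without 24 h replicate 1 or 24 h replicate 2 (adjusted p up to 0.13 without another array). The second CCNE1 probe set, with a mean signal of 4.76, changed by 0.07 at 24 h, and with the mean of both probe sets the 24 h call was lost (-0.11, adjusted p = 0.266).

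CCNE2, the gene of the related cyclin E2, had signals of 6.65, 6.17 and 6.71 in vehicle arrays, 7.25, 6.90 and 6.86 at 6 h, and 5.92, 6.63 and 6.19 at 24 h. Every 6 h array was above every vehicle and 24 h array, but the vehicle and 24 h arrays overlapped. Against vehicle the log2 difference was 0.49 ± 0.19 at 6 h (limma, adjusted p = 0.207) and -0.27 ± 0.19 at 24 h (adjusted p = 0.463). From 6 h to 24 h CCNE2 fell by 0.76 ± 0.19 (adjusted p = 0.0196), 1.69-fold with an interval of 1.28 to 2.24. That call was lost without 6 h replicate 1 or 2 or 24 h replicate 1 or 3 (adjusted p up to 0.0824). Its second probe set differed by -0.49 at 24 h (adjusted p = 0.00949 in a fit over all probe sets) and by -0.87 between the times. With the mean of both probe sets the differences from vehicle passed, at 0.44 at 6 h (adjusted p = 0.0204) and -0.38 at 24 h (adjusted p = 0.0219).

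CDC25A is the phosphatase that activates CDK2. Its signals were 9.77, 9.87 and 9.87 in vehicle arrays, 9.86, 9.77 and 9.86 at 6 h, and 9.57, 9.50 and 9.56 at 24 h. Vehicle and 6 h arrays overlapped and the 24 h arrays lay below both. CDC25A fell at 24 h by 0.30 ± 0.06 (limma, adjusted p = 0.00811), 1.23-fold, and its 2 other probe sets were lower as well, by -0.22 and -0.15. From 6 h to 24 h it fell by 0.29 ± 0.06 (adjusted p = 0.00593).

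The D cyclins sense growth signals and bind CDK4. CCND3 had signals of 9.13, 9.25 and 9.26 in vehicle arrays, 9.17, 9.13 and 9.16 at 6 h, and 9.002, 8.92 and 9.04 at 24 h. Its 24 h arrays were the lowest of the 9. It fell at 24 h by 0.22 ± 0.06 (limma, adjusted p = 0.0387), a call that held without vehicle replicate 1 and was lost without any other array (adjusted p up to 0.128). Its second probe set, with a mean signal of 4.58, differed by -0.03, and the mean of both did not pass (-0.13, adjusted p = 0.178). CCND1 had signals of 10.75, 10.76 and 10.86 in vehicle arrays, 10.76, 10.74 and 10.73 at 6 h, and 10.43, 10.63 and 10.70 at 24 h. Its 24 h arrays were also the lowest, with a wider spread, and the difference of -0.21 ± 0.07 did not pass (adjusted p = 0.115). CDK4 differed from vehicle by 0.03 at 24 h (adjusted p = 0.804), with all groups overlapping.

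CDK2, the kinase partner of cyclin E, differed by -0.10 at 6 h (limma, adjusted p = 0.453) and -0.15 at 24 h (adjusted p = 0.179). The activators E2F1 and E2F2 differed at 24 h by -0.11 (adjusted p = 0.349) and -0.15 (adjusted p = 0.317). None of these passed in any comparison.

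**Figure D3:**
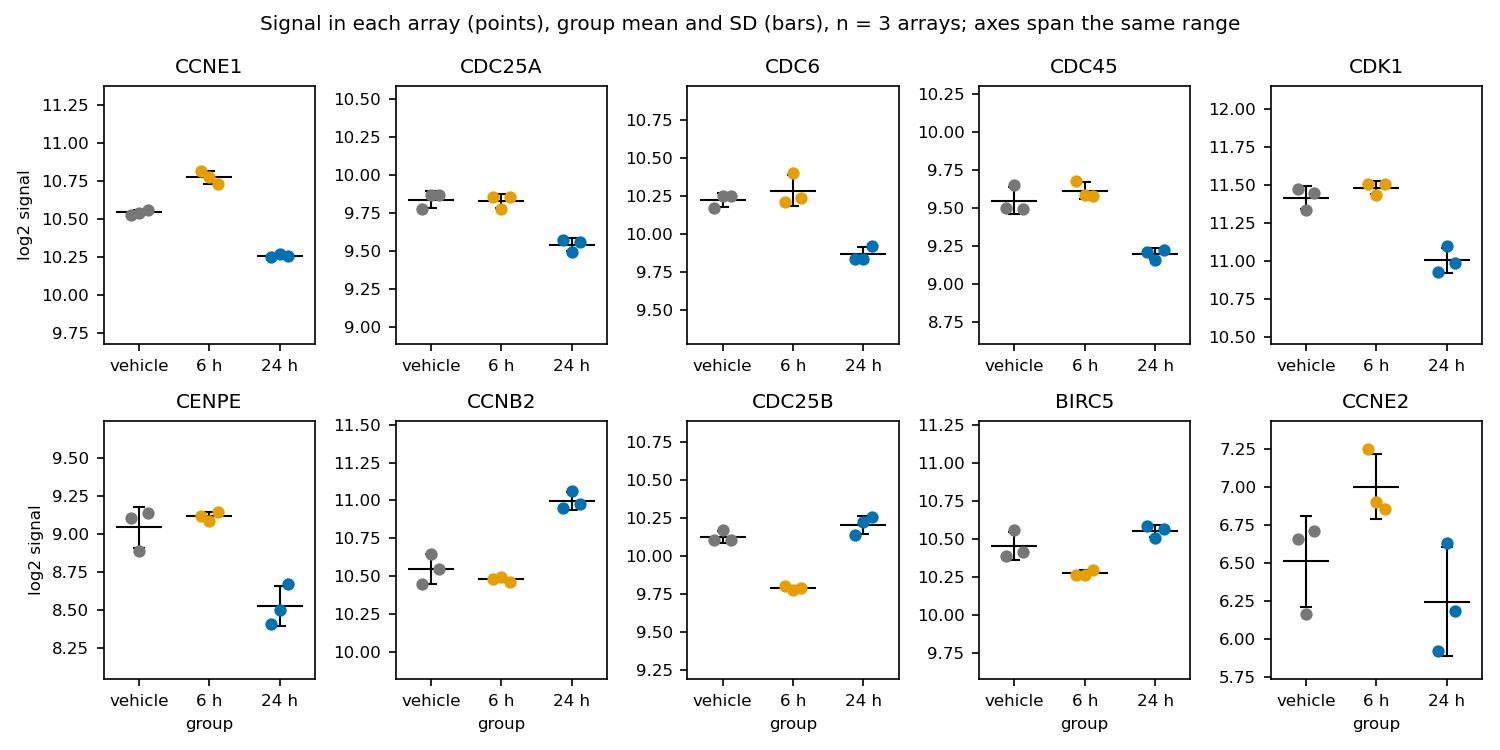
Log2 signal (vertical axis) of selected genes in each of the 3 vehicle, 6 h and 24 h arrays (points), with group mean and SD (bars), on axes of equal span. CCNE1 is highest at 6 h and lowest at 24 h, CDK1 and CENPE are lowest at 24 h, and CCNB2 is highest at 24 h.

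Among replication genes the largest falls were those of CDC6 and CDC45, which act at the origin. At 24 h CDC6, CDC45, MCM3 and RRM1 fell (30.8%), against 2.80% down over all genes and 4.95% above the median signal. None of the 13 rose, and the median log2 change was -0.15. At 6 h none of the 13 passed in limma's test (2 at an unadjusted p under 0.05), and the median was -0.02. The mean deviation from vehicle at 24 h was -0.08, -0.07 and -0.09 in the 3 arrays. The 4 falls at 24 h became 2 without vehicle replicate 1 or 3, any one 6 h array, or 24 h replicate 1.

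CDC6 loads the MCM helicase onto origins. Its signals were 10.17, 10.25 and 10.25 in vehicle arrays, 10.21, 10.40 and 10.24 at 6 h, and 9.84, 9.84 and 9.92 at 24 h. The 24 h arrays lay below the other 6, which overlapped. It fell at 24 h by 0.36 ± 0.06 (limma, adjusted p = 0.0061), 1.28-fold with an interval of 1.16 to 1.41, and from 6 h to 24 h by 0.42 (adjusted p = 0.00144). Without probe sets marked as sharing probes with other transcripts the 24 h difference was -0.24 (adjusted p = 0.135).

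CDC45 is the factor that joins the loaded helicase when an origin fires. Its signals were 9.50, 9.65 and 9.49 in vehicle arrays, 9.68, 9.59 and 9.58 at 6 h, and 9.21, 9.16 and 9.23 at 24 h. As for CDC6, only the 24 h arrays stood apart. It fell at 24 h by 0.35 ± 0.06 (limma, adjusted p = 0.00545), 1.27-fold with an interval of 1.16 to 1.40, and from 6 h to 24 h by 0.41 (adjusted p = 0.00117). CDT1, which loads the helicase together with CDC6, did not pass: it differed by -0.20 at 6 h (adjusted p = 0.372), by 0.08 at 24 h (adjusted p = 0.717), and by 0.28 between the times (adjusted p = 0.102). The difference between the times passed with the mean of its probe sets (0.23, adjusted p = 0.0231). It also passed with an intensity trend and robust prior (adjusted p = 0.049) and over genes above the median signal (adjusted p = 0.0452). Of the 9 fits with 1 array left out it passed in 1, without 24 h replicate 3 (adjusted p = 0.011). It passed in no other setting.

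The 6 subunits of the MCM2 to MCM7 helicase act as one ring, and their transcripts had changes of either sign. MCM3 had signals of 12.25, 12.30 and 12.27 in vehicle arrays, 12.09, 12.12 and 12.12 at 6 h, and 12.06, 12.004 and 12.13 at 24 h. All treated arrays lay below all vehicle arrays. MCM3 fell at 24 h by 0.21 ± 0.05 (limma, adjusted p = 0.0354) and differed by -0.16 at 6 h (adjusted p = 0.143). The 24 h call held without 24 h replicate 3 and was lost without any other array (adjusted p up to 0.116).

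MCM2 had signals of 11.59, 11.66 and 11.51 in vehicle arrays, 11.55, 11.46 and 11.59 at 6 h, and 11.78, 11.75 and 11.76 at 24 h. The 24 h arrays were the highest of the 9. MCM2 differed from vehicle by 0.17 at 24 h (limma, adjusted p = 0.108) and rose from 6 h to 24 h by 0.23 ± 0.06 (adjusted p = 0.0276), and needed 6 h replicates 1 and 2 and every 24 h array to pass (adjusted p up to 0.12 without one). MCM5 had signals of 9.88, 10.16 and 10.04 in vehicle arrays, 10.09, 9.96 and 10.08 at 6 h, and 10.28, 10.27 and 10.26 at 24 h. Its 24 h arrays were also the highest, and the difference from vehicle of 0.25 ± 0.07 did not pass (adjusted p = 0.0677). With an intensity trend and robust prior it passed (adjusted p = 0.0236), as it did over genes above the median signal (adjusted p = 0.024). Of the 9 fits with 1 array left out MCM5 passed in 1, without vehicle replicate 2 (adjusted p = 0.0214). It passed in no other setting. MCM4, MCM6 and MCM7 differed from vehicle at 24 h by -0.15, -0.02 and 0.03, and none passed.

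PCNA, the sliding clamp of the replication fork, had signals of 13.31, 13.18 and 13.27 in vehicle arrays, 13.29, 13.27 and 13.23 at 6 h, and 13.01, 13.16 and 12.95 at 24 h. The 24 h arrays were the lowest. The difference from vehicle was -0.21 (limma, adjusted p = 0.0806), and PCNA fell from 6 h to 24 h by 0.22 ± 0.07 (adjusted p = 0.0488). That call passed without vehicle replicate 2 or 24 h replicate 2 and was lost without any other array (adjusted p up to 0.161), and was lost after median centring of the arrays (adjusted p = 0.101).

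Ribonucleotide reductase, which makes deoxynucleotides, has a large and a small subunit. RRM1, the large subunit, had signals of 10.9995, 10.93 and 11.04 in vehicle arrays, 10.98, 10.93 and 10.95 at 6 h, and 10.78, 10.75 and 10.82 at 24 h. It fell at 24 h by 0.21 ± 0.05 (limma, adjusted p = 0.0344) and from 6 h to 24 h by 0.18 (adjusted p just under the threshold, 0.05 when rounded). Each call held without vehicle replicate 2 and was lost without any other array (adjusted p up to 0.105 and 0.155). A second RRM1 probe set differed at 24 h by -0.30. RRM2, the small subunit, had signals of 12.92, 12.98 and 12.97 in vehicle arrays, 13.07, 13.07 and 13.11 at 6 h, and 13.10, 13.06 and 13.08 at 24 h. All treated arrays were above all vehicle arrays, but the differences of 0.13 at 6 h (adjusted p = 0.233) and 0.13 at 24 h (adjusted p = 0.166) did not pass. Another RRM2 probe set, without shared probes and with a mean signal of 12.07, differed by 0.28 at 6 h and 0.00017 at 24 h. Between the times that probe set differed by -0.28 (adjusted p = 0.0455 in a fit over all probe sets), against 0.00036 for the one used. TYMS, which makes thymidylate, differed by -0.16 at 24 h (adjusted p = 0.126). Its other probe sets differed by -0.27 (mean signal 11.48, adjusted p = 0.0399 in a fit over all probe sets) and -0.02 (mean signal 5.55).

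**Figure D4:**
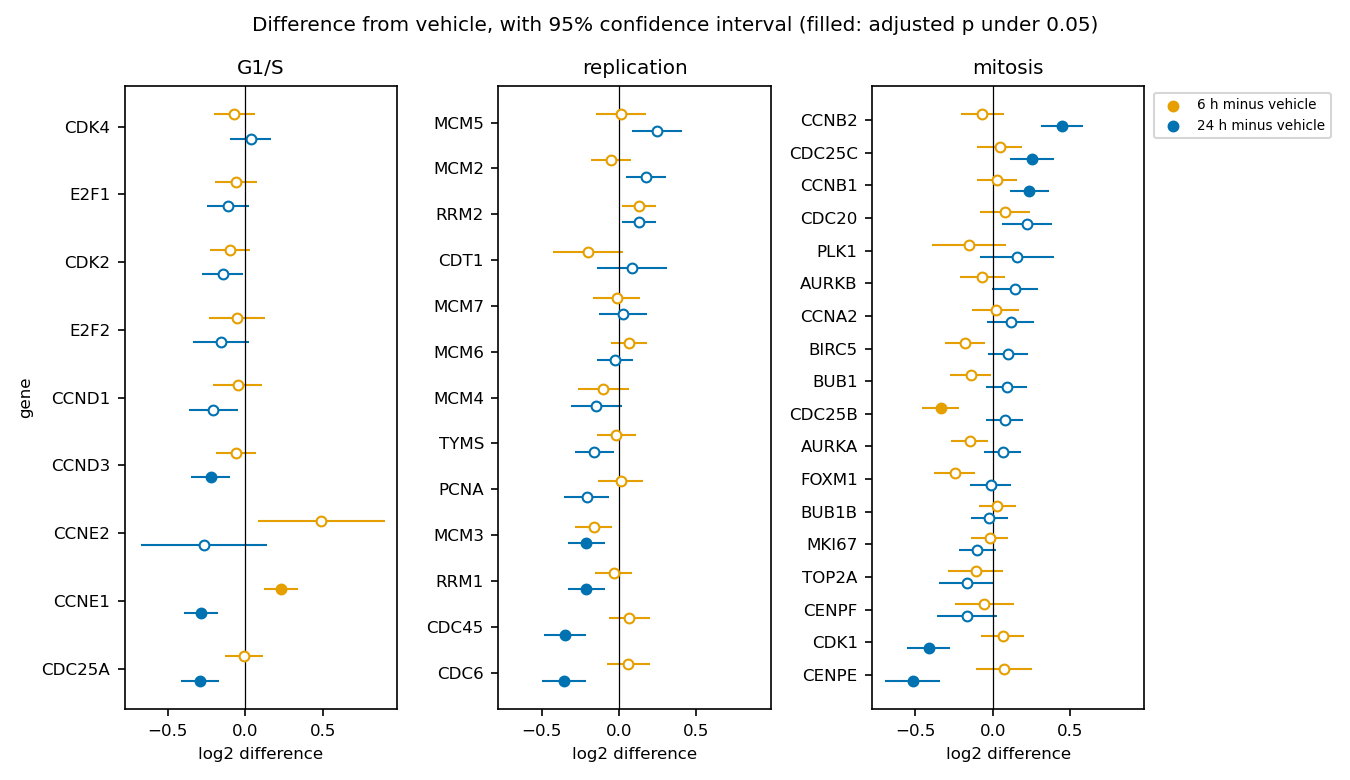
Log2 difference from vehicle (horizontal axis) with its 95% confidence interval for each of the 40 genes at 6 h and 24 h, filled where the adjusted p was under 0.05. At 24 h the filled points of the G1/S and replication panels are all below 0, and the mitosis panel has 3 above 0 and 2 below.

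The mitotic genes that changed went both ways. At 24 h CCNB2, CDC25C and CCNB1 rose (16.7%) and CDK1 and CENPE fell (11.1%), and 13 of 18 did not pass. Over all genes 5.38% rose and 2.80% fell (9.36% and 4.95% above the median signal), and the median change of the 18 was 0.08. From 6 h to 24 h 7 rose (38.9%) and 2 fell (11.1%), and the median was 0.21. The shares of all genes were 9.23% up and 4.57% down (16.9% and 7.45% above the median signal). All 24 h arrays lay above all 6 h arrays for 12 of the 18 and below them for 3, against 3788 and 2728 of all 19775 genes. The mean deviation from vehicle was -0.06, -0.08 and -0.05 in the arrays at 6 h and -0.00077, 0.04 and 0.05 at 24 h. Of the 3 rises at 24 h 1 was left when vehicle replicate 1, the first 6 h array or 24 h replicate 2 was dropped, and the 7 rises between the times became 3 without 6 h replicate 1, 6 h replicate 2 or 24 h replicate 2 and 4 without 6 h replicate 3. Without probe sets marked as sharing probes, 14 of the 18 were measured and their median from 6 h to 24 h was -0.03.

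The subunits of the kinase that starts mitosis moved in opposite directions. CDK1, its catalytic subunit, had signals of 11.47, 11.33 and 11.44 in vehicle arrays, 11.51, 11.43 and 11.50 at 6 h, and 10.93, 11.09 and 10.99 at 24 h. The 24 h arrays lay below the other 6. CDK1 fell at 24 h by 0.41 ± 0.06 (limma, adjusted p = 0.00254), 1.33-fold with an interval of 1.21 to 1.47, and its 3 other probe sets were lower too, by -0.45 to -0.09. From 6 h to 24 h it fell by 0.48 (adjusted p = 0.000612).

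CCNB2, the gene of cyclin B2, had signals of 10.45, 10.65 and 10.55 in vehicle arrays, 10.48, 10.49 and 10.46 at 6 h, and 10.95, 11.06 and 10.98 at 24 h. The 24 h arrays lay above the other 6. CCNB2 rose at 24 h by 0.45 ± 0.06 (limma, adjusted p = 0.0014), 1.37-fold with an interval of 1.24 to 1.501, and from 6 h to 24 h by 0.52 ± 0.06 (adjusted p = 0.000369). Its other probe sets, with mean signals of 6.02 and 4.25, differed by -0.14 and 0.16, and the mean over all of them did not pass (0.15, adjusted p = 0.0924).

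CCNB1, the gene of cyclin B1, had signals of 11.58, 11.58 and 11.66 in vehicle arrays, 11.65, 11.65 and 11.61 at 6 h, and 11.83, 11.93 and 11.77 at 24 h. Again the 24 h arrays were the highest. CCNB1 rose at 24 h by 0.24 ± 0.06 (limma, adjusted p = 0.0297), a call that needed vehicle replicates 1 and 2, 6 h replicate 1 and 24 h replicates 1 and 2 (adjusted p up to 0.1). It rose from 6 h to 24 h by 0.21 ± 0.06 (adjusted p = 0.0345), and was lost without any one 6 h array or 24 h replicate 1 or 2 (adjusted p up to 0.121). Its probe set without shared probes differed at 24 h by 0.18 (adjusted p = 0.33) and turned to -0.0043 between the times.

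The CDC25 phosphatases activate the cyclin-dependent kinases, and CDC25B and CDC25C act towards mitosis. CDC25B had signals of 10.10, 10.17 and 10.10 in vehicle arrays, 9.80, 9.77 and 9.79 at 6 h, and 10.13, 10.22 and 10.25 at 24 h. Only the 6 h arrays stood apart, below the rest. CDC25B fell at 6 h by 0.34 ± 0.05 (limma, adjusted p = 0.00697), 1.26-fold with an interval of 1.16 to 1.37, and the call passed whichever array was left out. At 24 h it differed from vehicle by 0.08 (adjusted p = 0.461), and from 6 h to 24 h it rose by 0.41 ± 0.05 (adjusted p = 0.000557), 1.33-fold.

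CDC25C had signals of 7.73, 7.91 and 7.76 in vehicle arrays, 7.79, 7.89 and 7.85 at 6 h, and 7.97, 8.11 and 8.08 at 24 h. It rose at 24 h by 0.25 ± 0.07 (limma, adjusted p = 0.0375), with the 24 h arrays above the others, but the call passed only without vehicle replicate 2 or 24 h replicate 1 (adjusted p up to 0.121 without another array). Its other probe sets differed by 0.52 (mean signal 6.97, adjusted p = 0.000735 in a fit over all probe sets) and 0.02 (mean signal 5.24, the one without shared probes).

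CENPE, the kinesin that carries chromosomes to the spindle equator, had signals of 9.10, 8.89 and 9.14 in vehicle arrays, 9.12, 9.08 and 9.14 at 6 h, and 8.41, 8.50 and 8.67 at 24 h. The 24 h arrays lay below the other 6. CENPE fell at 24 h by 0.52 ± 0.08 (limma, adjusted p = 0.00307), 1.43-fold with an interval of 1.26 to 1.62. From 6 h to 24 h it fell by 0.59 ± 0.08 (adjusted p = 0.000829), 1.51-fold.

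FOXM1, BIRC5, AURKA and BUB1 each had all 6 h arrays below all vehicle arrays, without passing the test at 6 h, and each rose from 6 h to 24 h. FOXM1, a transcription factor of the mitotic wave, had signals of 10.18, 10.29 and 10.18 in vehicle arrays, 9.98, 9.88 and 10.05 at 6 h, and 10.19, 10.21 and 10.21 at 24 h. All 6 h arrays were below all others, yet the difference of -0.25 ± 0.06 missed the threshold (limma, adjusted p = 0.0507), and with an intensity trend and robust prior it passed (adjusted p = 0.0138). At 24 h the difference was -0.01 (adjusted p = 0.933), and from 6 h to 24 h FOXM1 rose by 0.23 (adjusted p = 0.0256), lost without 6 h replicate 1 or 2 or any 24 h array (adjusted p up to 0.114).

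BIRC5, or survivin, a subunit of the chromosomal passenger complex, had signals of 10.39, 10.56 and 10.42 in vehicle arrays, 10.26, 10.26 and 10.30 at 6 h, and 10.59, 10.50 and 10.57 at 24 h. It differed by -0.18 at 6 h (limma, adjusted p = 0.147) and rose from 6 h to 24 h by 0.28 ± 0.06 (adjusted p = 0.0102), 1.21-fold. That call passed whichever array was left out, and its 3 other probe sets were higher by 0.13 to 0.40. AURKA, the kinase of spindle poles, had signals of 11.88, 11.85 and 11.89 in vehicle arrays, 11.74, 11.73 and 11.70 at 6 h, and 11.89, 12.01 and 11.92 at 24 h. The 6 h arrays were the lowest. AURKA rose from 6 h to 24 h by 0.21 ± 0.05 (adjusted p = 0.0215), lost without any one 6 h array or 24 h replicate 2 (adjusted p up to 0.078). Its other probe sets differed by 0.15 (mean signal 11.29) and -0.10 (mean signal 6.29, the one without shared probes), and the mean of all 3 did not pass (0.09, adjusted p = 0.309). BUB1, a spindle checkpoint kinase, had signals of 9.61, 9.63 and 9.65 in vehicle arrays, 9.46, 9.48 and 9.53 at 6 h, and 9.62, 9.82 and 9.71 at 24 h. It rose between the times by 0.23 ± 0.06 (adjusted p = 0.0261), lost without any one 6 h array or 24 h replicate 2 or 3 (adjusted p up to 0.0943). Of its 4 other probe sets 2 were lower (mean signals 4.49 and 4.41). The others differed by 0.12 (mean signal 9.31) and 0.01 (mean signal 5.81). The mean of all 5 differed by 0.02 (adjusted p = 0.905).

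Among the mitotic genes that passed nowhere, PLK1, a kinase of mitotic entry, had signals of 11.03, 11.55 and 11.20 in vehicle arrays, 11.10, 11.08 and 11.13 at 6 h, and 11.50, 11.34 and 11.40 at 24 h. Its vehicle arrays spread widely, and the difference between the times was 0.31 ± 0.11 (limma, adjusted p = 0.0898). AURKB, the kinase partner of survivin, differed between the times by 0.21 (adjusted p = 0.0604). CDC20, an activator of the anaphase-promoting complex, had a difference from vehicle of 0.22 at 24 h (adjusted p = 0.0947). CCNA2, TOP2A, MKI67, CENPF and BUB1B lay between -0.17 and 0.12 from vehicle at 24 h. MKI67, the gene of the proliferation antigen Ki-67, differed by -0.10 (adjusted p = 0.323). Its other probe sets differed by -0.04, -0.19 and -0.23, and only the last passed (adjusted p = 0.0413 in a fit over all probe sets).

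Genes of the same pathways outside the 40 were counted in 9 lists. At 24 h 9 of 39 further genes of origin firing and the replication fork fell (23.1%) and 1 rose, against 2.80% down over all genes and 4.95% above the median signal, and the median change was -0.11. RFC3, of the clamp loader, fell by 0.34 (limma, adjusted p = 0.00635) while RPA3, of the single-strand binding complex, rose by 0.33 (adjusted p = 0.0073). TIPIN fell by 0.32 (adjusted p = 0.0211) and WDHD1 by 0.38 (adjusted p = 0.0236), and both calls needed vehicle replicates 1 and 3 and 24 h replicate 1, with 24 h replicate 3 for TIPIN and 24 h replicate 2 for WDHD1. The 9 falls became 4 without vehicle replicate 1, 2 without vehicle replicate 3, 3 without 24 h replicate 1 and 2 without 24 h replicate 3. At 6 h ORC5, of the origin recognition complex, rose by 0.24 (adjusted p = 0.0285) and CHAF1A, of chromatin assembly, fell by 0.23 (adjusted p = 0.044), the first needing replicates 1 and 3 of the vehicle and 1 and 2 at 6 h, and the second passing without vehicle replicate 1 and lost without any other array (adjusted p up to 0.153). With the mean of all probe sets ORC5 did not pass (0.16, adjusted p = 0.22), and the CHAF1A probe set without shared probes differed by -0.01 (adjusted p = 0.966).

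Of 13 S phase checkpoint and homologous recombination genes measured, 5 fell at 24 h (38.5%, against the same 2.80% and 4.95%), none rose, and all 13 had a log2 change below 0 (median -0.20). EXO1, a repair exonuclease, fell by 0.46 ± 0.06 (limma, adjusted p = 0.000774), and PKMYT1, an inhibitory kinase of CDK1, by 0.29 (adjusted p = 0.02, which needed vehicle replicate 3 and 24 h replicates 2 and 3). The 5 falls became 3 without vehicle replicate 3 or 24 h replicate 3 and ranged up to 7. BLM, a helicase of recombination, fell from 6 h to 24 h by 0.44 (adjusted p = 0.000552). Of 17 genes of nucleotide supply measured, 2 rose and 1 fell at 24 h, 17.6% called, near the 14.3% among genes above the median signal (8.17% of all genes). IMPDH2, of guanine nucleotide synthesis, rose by 0.30 (adjusted p = 0.00565), and CTPS1, of cytidine nucleotide synthesis, fell by 0.27 (adjusted p = 0.023, which needed vehicle replicates 2 and 3 and 24 h replicates 1 and 2). The 2 rises became 3 without vehicle replicate 2 and 1 without any other single array.

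For the lists that follow, the background at 24 h was 5.38% up and 2.80% down over all genes, and 9.36% up and 4.95% down above the median signal. Of 9 CDK inhibitors and pocket proteins measured, 2 fell at 24 h (22.2%) and none rose. CDKN1A, the CDK inhibitor p21, fell by 0.40 ± 0.07 (limma, adjusted p = 0.00447), and RBL1, the pocket protein p107, by 0.37 (adjusted p = 0.00809). Of 15 other G1/S cyclins, kinases and E2F genes, 3 rose at 24 h, against the 5.38% and 9.36% of the backgrounds, and none fell. CCNG2, cyclin G2, which is known from cell cycle arrest, rose by 0.71 ± 0.11 (adjusted p = 0.00239), and E2F5, a repressor E2F, by 0.55 ± 0.08 (adjusted p = 0.00282). CCND2 rose by 0.31 (adjusted p = 0.0491), passing only without 6 h replicate 1 or 2. With the mean of its probe sets CCND2 differed by 0.03 (adjusted p = 0.837). Of 14 growth arrest and p53 response genes measured, 3 rose at 24 h (21.4%, against 5.38% and 9.36%) and none fell. DDIT4, an inhibitor of mTORC1 signalling, rose by 1.29 at 6 h (adjusted p = 1.85e-05) and by 1.73 ± 0.09 at 24 h (adjusted p = 1.78e-06). BTG1, an antiproliferative gene, rose by 0.53 at 24 h (adjusted p = 0.00573), and its probe set without shared probes differed by 0.04. SESN2 rose at 24 h by 0.25 (adjusted p = 0.0297), lost without any one vehicle array, 6 h replicate 1 or 24 h replicate 2 or 3.

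Of 45 spindle, kinetochore and cytokinesis genes, 2 rose and 2 fell at 24 h, 8.89% called, near the background of 8.17%. TPX2, a spindle assembly factor, rose by 0.28 (limma, adjusted p = 0.0095), KIF20B, a kinesin, fell by 0.52 ± 0.08 (adjusted p = 0.00193), and ZWINT, of the kinetochore, fell by 0.41 ± 0.05 (adjusted p = 0.000838). The count of rises was 1 without 24 h replicate 1 or 2. At 6 h NEK2, a centrosome kinase, fell by 0.37 ± 0.06 (adjusted p = 0.00732) whichever array was left out, and it rose from 6 h to 24 h by 0.43 (adjusted p = 0.000829). NUSAP1, a spindle protein, fell at 6 h by 0.25 (adjusted p = 0.0441), passing only without vehicle replicate 2 or 24 h replicate 2.

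Of 28 condensation, cohesion and anaphase genes measured, 3 rose (10.7%) and 5 fell (17.9%) at 24 h, against 5.38% up and 2.80% down over all genes and 9.36% up and 4.95% down above the median signal. PTTG1, securin, rose by 0.48 ± 0.06 (limma, adjusted p = 0.000743), and the condensin subunit NCAPD2 by 0.32 (adjusted p = 0.0126, and 0.052 without 24 h replicate 2). The condensin subunits SMC4 and SMC2 fell by 0.41 (adjusted p = 0.00621) and 0.31 (adjusted p = 0.0116), and SGO2, a protector of cohesion, by 0.45 ± 0.07 (adjusted p = 0.00195). The rises became 1 without 24 h replicate 2, and the falls became 3 where vehicle replicate 1, vehicle replicate 3 or 24 h replicate 1 was left out. None of the 6 MuvB and B-Myb genes passed in limma's test at 6 h, at 24 h or between the times, and 1, 0 and 1 of them had an unadjusted p under 0.05.

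**Figure D5:**
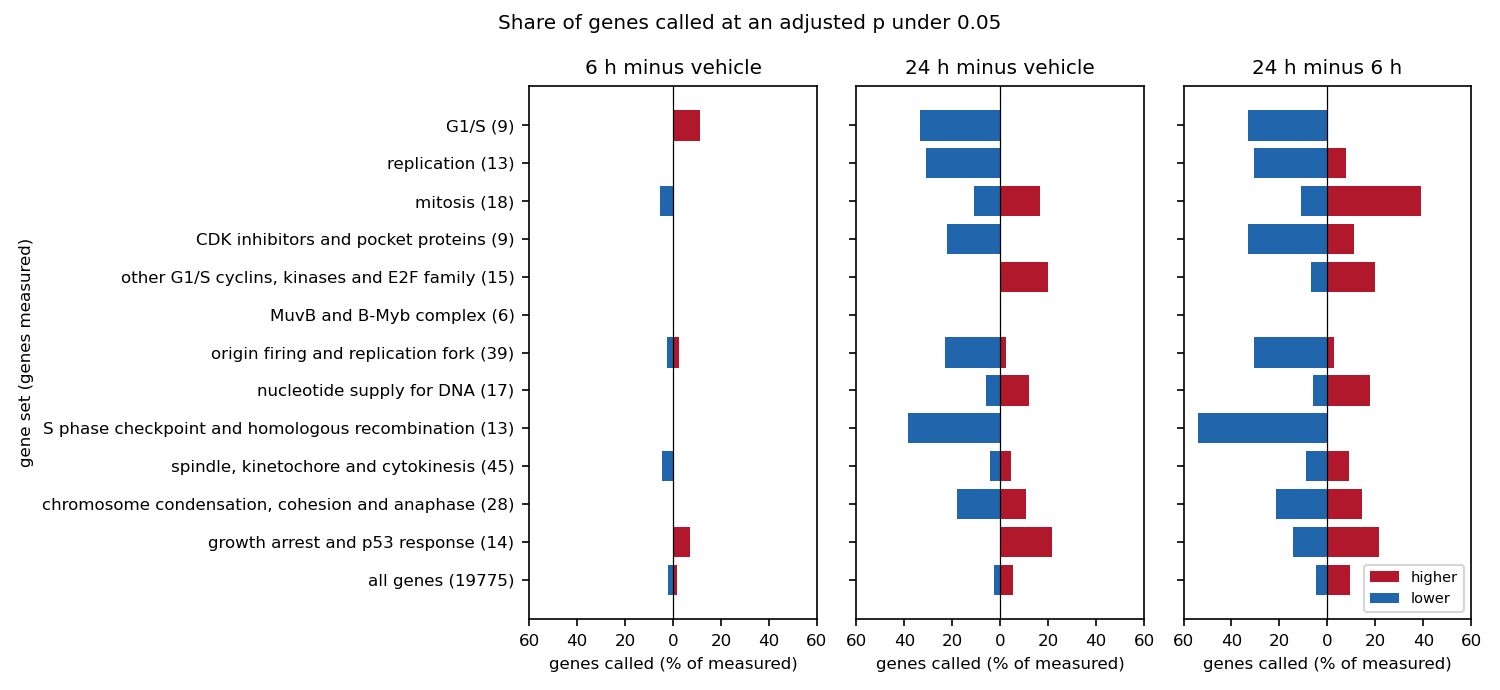
Share of genes (percent, horizontal axis) called higher or lower at an adjusted p under 0.05, for the 3 classes of the 40 genes, the 9 further lists and all genes, in each of the 3 comparisons. At 24 h against vehicle the lower calls reach 33.3% of G1/S genes, 30.8% of replication genes and 38.5% of checkpoint and recombination genes, against 2.80% of all genes.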

How the data were processed

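Total RNA from 9 HepG2 samples was hybridised to Affymetrix arrays. The authors deposited 1 log2 signal per probe set and array, summarised by RMA per the submitters' processing notes; the sources used here name neither the RMA software and its version nor the probe annotation. RMA normalizes the arrays to a shared distribution, so a shift common to most genes would not be seen. Of 54675 probe sets, 41091 with 1 gene symbol were kept, 1801 had several symbols, 11721 had none and 62 were controls. Where a gene had several probe sets the brightest on average was taken, leaving 19775 genes; 29 of the 40 genes had several probe sets.

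One limma model (limma 3.58.1, R 4.3.3) with the 3 groups was fitted to all genes, with empirical Bayes moderation (6 residual and 11 total degrees of freedom), and p-values were adjusted by Benjamini-Hochberg over all genes in each of 3 comparisons. The number of arrays limits the precision: the median standard error was 0.0724, and an exact permutation test of 3 against 3 arrays cannot go below 0.1. Tested on simulated data for 24 h minus vehicle over 19775 genes, the script called 15 of 50 genes changed by 0.25 (log2), 39 of 50 changed by 0.5 and 48 of 50 changed by 1. It also called 13 of the genes left unchanged.

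The 40 genes, their classes, the 9 further lists (195 genes, 9 of them not analysed here) and the markers were chosen with earlier results of these data known. Genes named are all of the 40 that passed, the 3 largest changes per class and comparison, and up to 3 passing genes per list and direction. Replicate numbers in the titles were checked for pairing: same-numbered arrays correlated in their deviations at -0.20 to 0.086, so no block was used. Alternatives were a replicate block, only the compared groups, an intensity trend with robust prior, a filter at the median signal, averaging a gene's probe sets, leaving out probe sets marked as shared (IDs ending in _x_at or _s_at), quantile normalization, median centring, an adjusted p under 0.01 and each array left out.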

Additional observations from a re-analysis of the deposited data

Results flagged for a closer look

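The change from 6 h to 24 h was tested by the 24 h minus 6 h contrast of the limma fit. It differed from 0 at an adjusted p under 0.05 for 17 of the 40 genes (42.5%, against 13.8% of all genes). The signals at the 2 times thus differed for these genes, and ligand exposure and time in culture cannot be told apart here either. From the further lists, the gene with the largest change in each direction was taken only among genes that passed. Directions without a passing gene gave none, so the passing of these list genes is no separate result. The 24 h minus 6 h contrast was also described in the report and shares its 6 arrays over all genes.

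Among the 40, the log2 difference was -0.518 for CCNE1, -0.758 for CCNE2 and -0.287 for CDC25A in the G1/S class. It was -0.418 for CDC6, -0.415 for CDC45, 0.226 for MCM2, -0.22 for PCNA and -0.178 for RRM1 in the replication class. In the mitosis class it was 0.209 for CCNB1, 0.516 for CCNB2, -0.479 for CDK1, 0.414 for CDC25B and 0.213 for AURKA. It was 0.231 for BUB1, 0.277 for BIRC5, -0.591 for CENPE and 0.232 for FOXM1.

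Among list genes it was 0.324 for RBL2, -0.305 for CDKN1A, 0.978 for CCNG2, -0.294 for E2F8, 0.253 for RPA3 and -0.494 for RFC3. It was 0.306 for TK1, -0.289 for CTPS1, -0.445 for BLM, 0.428 for NEK2 and -0.418 for ZWINT. It was 0.564 for NCAPD2, -0.513 for SGO2, 0.673 for BTG1 and -0.261 for PLK2.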

How the results depend on the processing

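Counts of the 40 genes called moved as follows. With the replicate block, 0 in place of 1 rose at 6 h and 4 in place of 8 rose from 6 h to 24 h. The block changed no other such count by over 1.5 times, and 1 of 9 arrays correlated best with an array of its own number. Within that margin, the falls of CCND3, MCM3 and RRM1 at 24 h were lost with the block. They were also lost with only the compared groups and at an adjusted p under 0.01. With only the compared groups, 0 rose at 6 h and 1 in place of 3 at 24 h. With an intensity trend and robust prior, 2 rose and 4 in place of 1 fell at 6 h, 7 rose at 24 h and 13 rose between the times. Over genes above the median signal, 3 fell at 6 h, 6 rose at 24 h and 13 rose between the times. With the mean of all probe sets, 2 fell at 6 h and 1 rose at 24 h. Without shared probe sets, where fewer of the genes were measured (30), 0 fell at 6 h, 1 rose and 4 in place of 9 fell at 24 h, and 3 rose between the times. CDC25B, CDC45, RRM1, MCM2 and FOXM1 have only probe sets marked as shared. Their calls could thus not be assessed in that setting. After quantile normalization 4 rose between the times, and after median centring 0 rose and 2 fell at 6 h. At an adjusted p under 0.01, 0 rose at 6 h, 1 at 24 h and 2 between the times. The cause of the other moves was not tested.

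Leaving out each array gave 0 to 1 rises at 6 h, 1 to 5 at 24 h and 3 to 11 between the times. Class medians (log2) over the arrays left out were -0.040 to 0.0089 (replication) and -0.062 to -0.016 (mitosis) at 6 h, -0.18 to -0.060 (replication) and 0.054 to 0.095 (mitosis) at 24 h, and -0.078 to -0.043 (replication) and 0.17 to 0.23 (mitosis) between the times.

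Medians moved by more than the spread between arrays in these settings. With the mean of all probe sets they were -0.0052 (mitosis) at 6 h, -0.11 (G1/S) and 0.031 (mitosis) at 24 h, and -0.076 (G1/S), -0.12 (replication) and 0.070 (mitosis) between the times. Without shared probe sets they were 0.024 (mitosis, 6 h), -0.11 (replication) and -0.028 (mitosis) between the times. After quantile normalization they were -0.17 (replication) and 0.056 (mitosis) at 24 h, and -0.099 (replication) and 0.16 (mitosis) between the times. After median centring the replication median between the times was -0.024. Without shared probe sets CCNB1 (-0.0043), AURKA (-0.10) and BTG1 (-0.021) reversed between the times. CCNE2, with the lowest mean signal of the 40 genes, had the largest standard error among them.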
